A study of Mus musculus with 6 samples.

Results

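The genes of the B cell receptor complex and of the B lymphocyte lineage were followed in mouse gastrointestinal stromal tumours treated with imatinib or with vehicle. The members are Cd79a, Cd79b, Ms4a1, Blk, Blnk, Pax5, Vpreb3, Cd22 and Spib, taken by gene name, and they are 9 of the 29516 gene names measured. These tumours (GIST) arise in the muscle layer of the gut, resemble its pacemaker cells, the interstitial cells of Cajal, and are commonly driven by the receptor tyrosine kinase KIT. All tumours came from C57Bl/6 mice of 6 weeks with the genotype Kit V558Δ/+, so vehicle and treated tumours carry the same Kit allele. There were 3 vehicle samples and 3 imatinib samples, both agents were injected into the peritoneum, and imatinib blocks KIT and some other tyrosine kinases. Neither the dose, nor the length of treatment, nor the part of the tumour taken is given in the labels. The labels do not say whether samples of a group are separate animals, and p-values therefore describe the variation among these 6 samples, which may be technical.

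Each sample was hybridised to an Illumina beadchip with 45281 probes, of which each vehicle array detected 20684 to 20923 and each imatinib array 21268 to 21439. A probe counted as detected where its deposited detection p-value against the negative controls was under 0.05. Values are log2 signals after background correction and quantile normalization, each probe has its own scale, and levels of different genes are therefore not set against each other. The median number of beads behind a probe was 43 on every array, and the number of arrays limits the precision. Correlations over the genes tested, each by its brightest kept probe, lay between 0.945 and 0.986 within groups and between 0.915 and 0.978 across groups. Kit, the drug target, was detected on all 6 arrays at 14.39, 14.01 and 14.33 with vehicle and 13.89, 14.47 and 13.48 with imatinib. The Kit groups overlapped, and the difference of -0.30 ± 0.26 (SE) did not pass the test (adjusted p = 0.485, limma). Kit had 2 other kept probes, and with the mean of its probes the difference was -0.77 (adjusted p = 0.223, limma).

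The B cell receptor is a membrane immunoglobulin held in a complex with the CD79A and CD79B chains, whose cytoplasmic tails carry the tyrosine motifs that start the signal. After antigen binding, kinases of the SRC family such as BLK phosphorylate these tails, and the adaptor BLNK then links SYK to BTK and phospholipase C gamma, while CD22 restrains the signal. PAX5 and SPIB are transcription factors of the lineage, VPREB3 is a chain related to the surrogate light chain, and MS4A1 is the CD20 antigen. In the gut, B cells collect in lymphoid follicles of the wall and, as plasma cells, in the lamina propria.

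Cd79a and Vpreb3 rose with imatinib, and the other 5 tested members had higher means that did not pass the test. Under the reported setting Cd79a, 1 of the signalling chains of the receptor, was 3.14-fold higher, and Vpreb3 was at least 2.19-fold higher. Both were smaller in the authors' processed values, with log2 differences of 0.77 for Cd79a and 0.60 for Vpreb3. Of the 16 probes of the members, 11 were detected on at least 3 of the 6 arrays and kept, which left 7 members tested. Ms4a1 and Pax5 were not tested. Of the 7, 2 passed an adjusted p of 0.05 in the higher direction, against 0.523% of the 14713 genes tested, and none passed in the lower direction, against 1.05%. By unadjusted p under 0.05 the 7 were higher, against 13.8% of genes tested, and at an adjusted p of 0.1 there were 5, against 5.29%. Imatinib values lay above all vehicle values in the 7 tested members, against 17.4% of genes tested, and the median log2 difference was 1.40 against 0.04 for all genes tested. These counts are a description and no test of the members as a set. The members and the lists were chosen with earlier results of these data known. Vpreb3 was also kept only because of its imatinib values, and a gene kept in that way had to be higher there. The tumours are bulk samples, so more B cells and more of these transcripts per cell cannot be told apart.

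**Figure D1:**
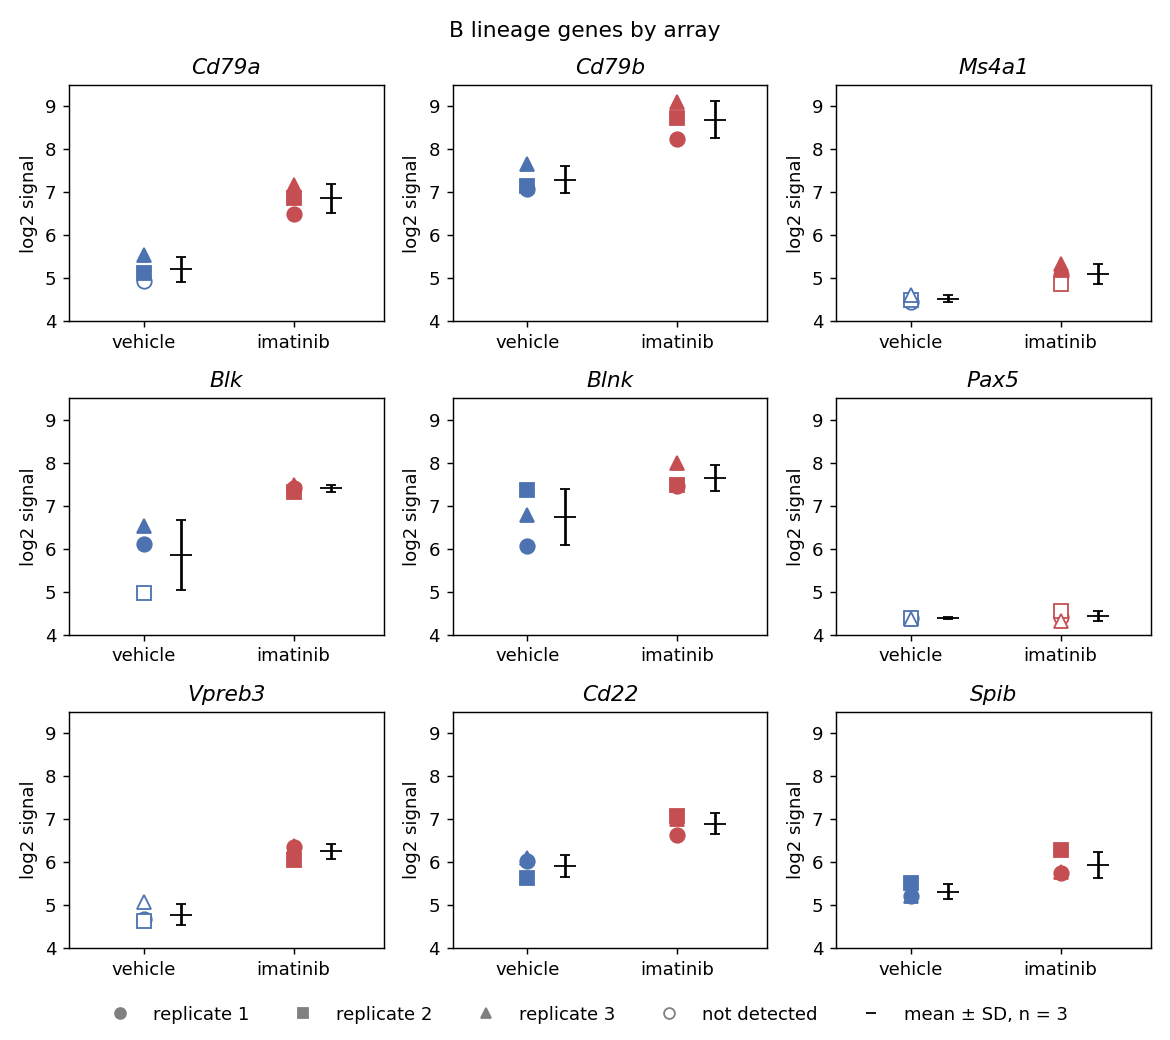
Log2 signal (vertical axis) of the 9 B lineage genes on the 3 vehicle arrays (blue) and the 3 imatinib arrays (red), with the replicate number as the symbol, open symbols where the probe was not detected, and the mean ± SD (n = 3) beside each group. The imatinib symbols lie above the vehicle symbols in every panel except Pax5, which was open throughout, and Ms4a1 has filled symbols only on imatinib 1 and imatinib 3.

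Promoter sequence is shown for 4 members, those with a match to the motifs given below. The promoters of Spib and Pax5 were searched too, had no match and are not shown. The 250 bases before the transcription start come from a table of RefSeq promoters of build GRCm38.p6 in which 6 members were matched, and the promoters of Cd79b, Ms4a1 and Blk were not used here. The sequences run 5′ to 3′ on the strand of the gene, and capitals mark matches to the motifs given after them.
Cd79a, chr7:24897247-24897496, plus strand: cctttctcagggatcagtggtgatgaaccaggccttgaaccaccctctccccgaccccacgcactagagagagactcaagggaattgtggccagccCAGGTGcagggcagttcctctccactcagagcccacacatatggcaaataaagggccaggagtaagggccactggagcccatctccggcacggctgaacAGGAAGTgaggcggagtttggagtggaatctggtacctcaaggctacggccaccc
Vpreb3, chr10:75948050-75948299, plus strand: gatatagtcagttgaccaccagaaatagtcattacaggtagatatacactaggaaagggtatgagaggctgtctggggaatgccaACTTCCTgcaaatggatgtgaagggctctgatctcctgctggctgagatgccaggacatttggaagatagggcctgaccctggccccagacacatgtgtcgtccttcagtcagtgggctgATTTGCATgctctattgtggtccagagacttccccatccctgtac
Blnk, chr19:40994222-40994471, minus strand: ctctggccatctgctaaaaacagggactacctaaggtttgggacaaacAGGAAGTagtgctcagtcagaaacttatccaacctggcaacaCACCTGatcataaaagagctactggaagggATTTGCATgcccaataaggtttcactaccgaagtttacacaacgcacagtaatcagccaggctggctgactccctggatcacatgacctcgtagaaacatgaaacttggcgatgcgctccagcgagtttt
Cd22, chr7:30879029-30879278, minus strand: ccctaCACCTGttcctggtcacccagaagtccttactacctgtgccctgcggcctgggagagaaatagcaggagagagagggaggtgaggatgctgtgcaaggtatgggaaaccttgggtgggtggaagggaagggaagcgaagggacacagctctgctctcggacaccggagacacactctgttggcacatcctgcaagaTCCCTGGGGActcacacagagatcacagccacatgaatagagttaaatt

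The 6 motifs were searched on both strands, and they were chosen after the sequences had been seen. The octamer ATGCAAAT, the site of the OCT factors in immunoglobulin promoters, occurred 45 bases before the start of Vpreb3 and 130 bases before that of Blnk, and in 1.6% of 32851 promoter windows of this length. The palindromic EBF motif, the site of early B cell factor, was the capital stretch 49 bases before the start of Cd22 and occurred in 0.779% of windows. The Ets motif AGGAAGT lay at 55 bases in Cd79a, 165 in Vpreb3 and 202 in Blnk, and in 7.69% of windows. The E-box CAGGTG lay at 154 bases in Cd79a, 160 in Blnk and 245 in Cd22, and in 17.2% of windows. Neither the PU.1 form GAGGAAG, whose letters overlap AGGAAGT when a T follows, nor the NF-kB motif occurred in the 6 windows, and these were found in 10.6% and 0.356% of all windows. The letters of Spib and Pax5 held none of the 6 motifs. A match describes the sequence only, and binding was not measured.

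The receptor's signalling chains were high on the same arrays. Cd79a was at 4.95, 5.13 and 5.54 on vehicle arrays 1, 2 and 3 and at 6.50, 6.88 and 7.18 on imatinib arrays 1, 2 and 3. The groups did not overlap, and replicate 3 was the highest of each group. The mean rose from 5.21 ± 0.30 to 6.86 ± 0.34 (SD, n = 3 each), a log2 difference of 1.65 ± 0.23 (SE, 95% interval 1.10 to 2.20) with an adjusted p of 0.0418 (limma, Benjamini-Hochberg over all genes tested). Its single probe was detected on 2 of 3 vehicle arrays and on 3 of 3 imatinib arrays, and the vehicle level lies near background. The deposited signal before correction went from 56.6 ± 4.35 on vehicle 1 (SE over 38 beads) to 156 ± 7.21 on imatinib 3 (SE over 39 beads). Cd79a ranked 88 among the genes tested by p. The call was lost on leaving out vehicle 1, vehicle 3 or any imatinib array (adjusted p from 0.0557 to 0.167) and was kept without vehicle 2 (adjusted p = 0.0389).

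Cd79b, the partner chain of CD79A, was at 7.07, 7.16 and 7.65 with vehicle and at 8.24, 8.73 and 9.10 with imatinib. Imatinib 1 was the lowest treated array and still lay above vehicle 3, the highest control. The log2 difference of 1.40 ± 0.26 (SE, 95% interval 0.77 to 2.02), or 2.63-fold, missed the threshold with an adjusted p of 0.0547 by limma. A second Cd79b probe gave nearly the same difference, 1.38, from a mean of 6.21 to 7.59, and both probes were detected on all 6 arrays. Over the 6 arrays the Pearson correlation of Cd79a with Cd79b was 0.993, a description in which the shared arrays and the shared treatment contrast both enter.

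Vpreb3 was below detection on the 3 vehicle arrays, at 4.67, 4.62 and 5.06, and was detected on the 3 imatinib arrays, at 6.34, 6.04 and 6.37. The treated arrays lay close together and apart from every control. The log2 difference was 1.47 ± 0.17 (SE, 95% interval 1.07 to 1.87) with an adjusted p of 0.0339 by limma. Because the vehicle group has only an upper bound, the fold is given as at least 2.19. For this, each vehicle array was set to the higher of its own value and its lowest detected signal. The bound belongs to the reported setting and carries no sampling error, and the log2 difference was 0.60 in the authors' processed values. Deposited signals were 48.0, 44.6 and 60.2 with vehicle and 101, 98.0 and 101 with imatinib. Leaving out vehicle 1 or vehicle 3 ended the call (adjusted p of 0.0942 and 0.167), and without any imatinib array the probe no longer met the detection filter.

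The kinase and the adaptor of the receptor varied more among the controls. Blk was at 6.10, 4.96 and 6.53 with vehicle and at 7.41, 7.33 and 7.49 with imatinib. Vehicle 2 was not detected and stood lowest, whereas the treated arrays differed little. The log2 difference of 1.55 ± 0.38 (SE, 95% interval 0.62 to 2.47), or 2.92-fold, did not pass (adjusted p = 0.08, limma), and the vehicle SD of 0.81 was the widest among the tested members. Without vehicle 2 the difference was 1.10 and passed with an adjusted p of 0.0362. A second kept Blk probe gave 1.00 and was detected only on the imatinib arrays, and the remaining probe was not detected on any array and gave 0.01.

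Blnk was at 6.06, 7.36 and 6.78 with vehicle and at 7.45, 7.48 and 7.99 with imatinib. Vehicle 2, the lowest control for Blk, was the highest control for Blnk and lay 0.09 under imatinib 1. The log2 difference of 0.91 ± 0.34 (SE, 95% interval 0.08 to 1.73), or 1.87-fold, did not pass (adjusted p = 0.162, limma). The other Blnk probe gave 0.92. The correlation of Blk with Blnk over the 6 arrays, 0.434, was the lowest of the 21 pairs of tested members, whose median was 0.8.

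Cd22, the inhibitory coreceptor that binds sialic acid, was at 6.02, 5.62 and 6.10 with vehicle and at 6.62, 7.06 and 7.00 with imatinib. The groups were separate by a margin similar to the spread among controls. The log2 difference of 0.98 ± 0.19 (SE, 95% interval 0.54 to 1.43), or 1.98-fold, missed the threshold (adjusted p = 0.0547, limma). The probes of Cd22 disagreed. A second probe, also detected on all 6 arrays, gave 0.13 with overlapping groups, and the remaining probe, not detected on any array, gave 0.16. With the mean of the kept probes in place of the brighter probe, the Cd22 difference was 0.56.

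Of the transcription factors, Spib was at 5.21, 5.52 and 5.21 with vehicle and at 5.74, 6.28 and 5.77 with imatinib, detected on all 6 arrays. Replicate 2 was the highest of both groups, and the groups did not overlap. The log2 difference of 0.62 ± 0.19 (SE, 95% interval 0.17 to 1.07), or 1.53-fold, was the smallest among the tested members and did not pass (adjusted p = 0.113, limma). The other Spib probe was not detected and gave 0.07. SPIB is also made by plasmacytoid dendritic cells and by microfold cells of the epithelium over follicles, and the lists for both are given with the other cell types.

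Pax5, the commitment factor of the lineage, was not detected on any array and lay at 4.40, 4.40 and 4.37 with vehicle and 4.42, 4.55 and 4.31 with imatinib. These values overlapped and are those of probes without signal, so that no difference could be measured. Ms4a1 lay at 4.45, 4.51 and 4.61 with vehicle, none of them detected, and at 5.09, 4.88 and 5.33 with imatinib, detected on imatinib 1 and imatinib 3. The Ms4a1 groups did not overlap, but with 2 detected arrays the probe was not kept, and no fold is given. Without the detection filter Ms4a1 differed by 0.58 (adjusted p = 0.101, limma) and Pax5 by 0.04 (adjusted p = 0.869).

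The tested members shared a pattern over the arrays. With each gene centred on its own mean, the mean of the 7 was -0.76, -0.72 and -0.36 on vehicle arrays 1 to 3 and 0.42, 0.63 and 0.79 on imatinib arrays 1 to 3. Vehicle 3 was the control nearest to the treated arrays, and imatinib 1 the treated array nearest to the controls. The bead standard error, the measurement error within an array, was 3.68% to 12.6% of the signal over the 7 representing probes. Genes outside the members were then ranked by Pearson correlation with the members' mean over the 6 arrays, passing over names of clones, predictions and accessions. The most similar were Ppp1r9a (0.997), Amy2 (0.996), Cxcr5 (0.993), Tnfrsf13c (0.992), Rpl35 (0.992), Siglecg (0.991), Fbln1 (0.991) and Lrrn3 (0.991). With 6 arrays in 2 groups such correlations are common: 613 of 14706 genes, or 4.17%, were above 0.9 and 610 were below -0.9. Siglecg and Lrrn3 were kept only because of their imatinib values.

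Among 28 tested of 30 listed markers of mature B cells, 3 were higher and 1 lower by limma, against 0.523% and 1.05% of all genes. The median log2 difference was 0.57, and 21 had a higher mean, against 54.3% of all genes tested. Siglecg, 1 of the 21, was kept only because of its imatinib values. Tnfrsf13c, the receptor for the B cell survival factor BAFF, was at 4.86, 5.31 and 5.79 with vehicle and 7.41, 7.59 and 7.76 with imatinib. It rose by 2.26 ± 0.25 (SE) on the log2 scale, or 4.80-fold, with an adjusted p of 0.0339. Cxcr5, by which B cells follow the chemokine CXCL13 into follicles, rose 3.48-fold with the same adjusted p, and both were detected on 2 of 3 vehicle arrays. Il4i1, an amino acid oxidase secreted by B cells and myeloid cells, rose 1.91-fold (adjusted p = 0.0339). Cd40, a costimulatory receptor of B cells that macrophages and dendritic cells carry too, moved the other way, from 9.79, 9.47 and 9.73 to 8.06, 8.40 and 8.19. It fell by 1.44 on the log2 scale (SE 0.15, adjusted p = 0.0339, limma), 2.72-fold. Each of these calls, like those named from the other lists, was lost on leaving out vehicle 1, vehicle 3, imatinib 1 or imatinib 3, except that Fyn, described next, was no longer tested without any vehicle array. The calls of Pik3ap1, Fyn and Ccl20 were also lost without imatinib 2, and none of the calls held without the detection filter or with the replicate block. In the authors' processed values the Tnfrsf13c difference was 1.28, and the calls of Cxcr5, at 0.57 (adjusted p = 0.0518), and Ccl20, at 0.99 (adjusted p = 0.0638), were lost. The Cxcr5 difference was 0.94 in the deposited gene-level table. For Sdc1, named among the plasma cell genes, the difference was 1.02 in that table and 0.85 in the processed values.

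Among genes that act downstream of the receptor, 11 of 29 tested had a higher mean, against 54.3% of all genes tested. Of these 29, from 30 listed genes of antigen receptor signalling, none was higher and 2 were lower by limma, with a median of -0.13. Over all genes tested, those shares were 0.523% and 1.05%. By unadjusted p under 0.05 there were 4 higher and 6 lower, against 13.8% and 12.6% of all genes tested. Pik3ap1, the PI3 kinase adaptor BCAP, fell by 0.73 (SE 0.11) on the log2 scale (adjusted p = 0.0452). Fyn, a SRC family kinase best known from T cells, was detected on the 3 vehicle arrays and on none of the imatinib arrays, and was at least 1.09-fold lower (adjusted p = 0.0473). It was kept only because of its vehicle values. The Fyn call was also lost without background correction, with an offset of 50, with median scaling, with a variance trend, and in the deposited gene-level table and the authors' processed values (adjusted p from 0.0511 to 0.236), where the difference was -0.23 and -0.17. Many genes of this list act in myeloid and T cells too. Whether the members and this list differ in their response was not tested.

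On the lists for earlier and later B cell stages no gene other than Sdc1 passed by limma. Over all genes tested, 13.8% were higher by unadjusted p under 0.05. Of 5 tested of 12 listed genes of progenitor and pre-B cells, 3 had a higher and 2 a lower mean. By that p 2 were higher, Il7r, the interleukin 7 receptor, at 1.25 (adjusted p = 0.0948, limma) and Cd93 at 0.48 (adjusted p = 0.167). Vpreb1 and Sox4 had the lower means, with differences of -0.19 and -0.31 (adjusted p of 0.522 and 0.411, limma). Of 4 tested of 10 listed germinal centre genes, 2 were higher by unadjusted p. Bcl6, the germinal centre repressor, differed by 1.78 (adjusted p = 0.0925, limma). Mef2b was at least 1.30-fold higher (adjusted p = 0.0977, limma). It was not detected with vehicle and was kept only because of its imatinib values, so it had to be higher there. Of 15 tested of 23 listed plasma cell and immunoglobulin genes 1 was higher, Sdc1, or syndecan 1, which epithelium also carries, at 2.96-fold (adjusted p = 0.0365). The immunoglobulin genes themselves varied widely among the controls. Over 70 tested of 154 immunoglobulin constant and variable genes, whose near-identical segments make single probes uncertain and whose selection came after the files were seen, none passed by limma and 4 were higher by unadjusted p. Their centred mean was -1.23, 0.97 and -0.17 with vehicle and 0.48, 0.08 and -0.14 with imatinib, and vehicle 2 stood above every treated array. Of the 70, 48 had a higher and 22 a lower mean. Igkv13-84, among the 4 higher by unadjusted p, was kept only because of its imatinib values. Ighm, the IgM heavy chain gene, was detected on all 6 arrays and differed by -0.01 ± 0.37 (SE, adjusted p = 0.987, limma). Igkc, the kappa constant gene, differed by 0.81 ± 0.68 (SE, adjusted p = 0.467, limma). The difference between the members and these genes was not tested.

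**Figure D2:**
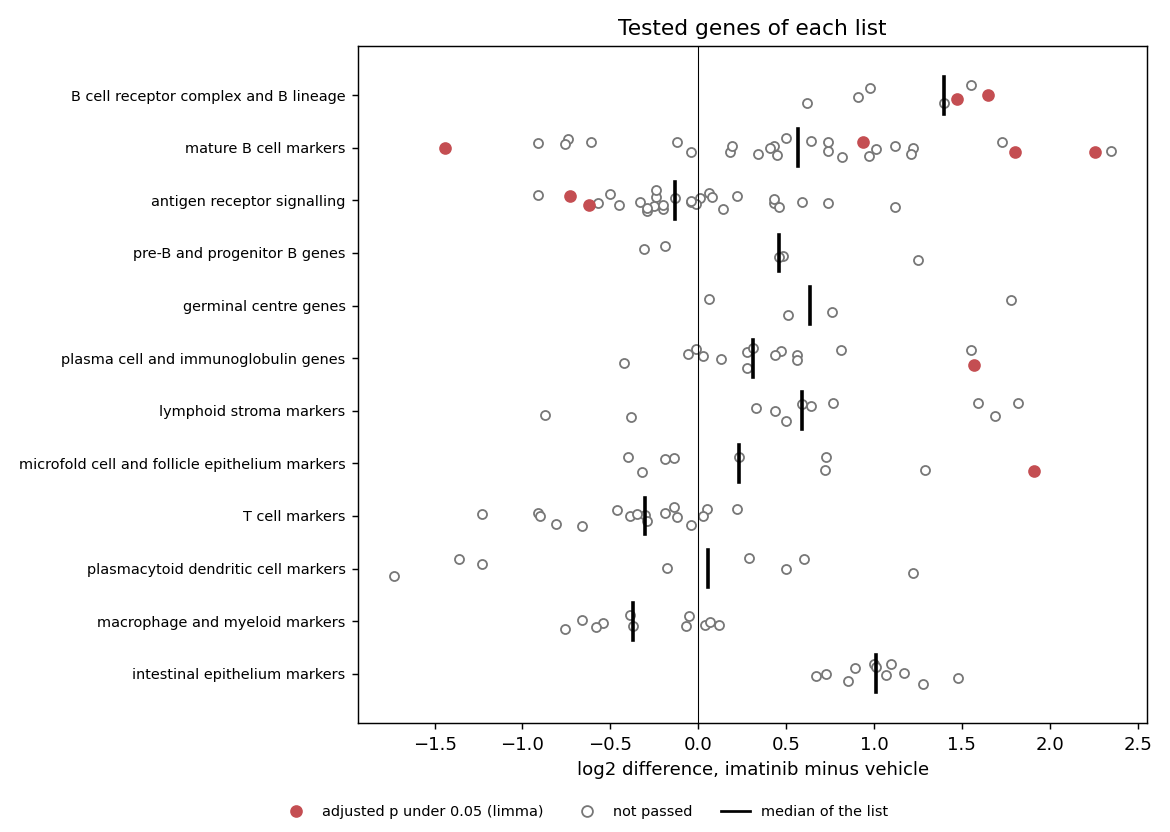
Log2 difference, imatinib minus vehicle (horizontal axis), of every tested gene of the B lineage members and of 11 other lists, with filled points where the adjusted p by limma was under 0.05 and a bar at each list's median. The members lie between 0.62 and 1.65 with a median of 1.40, mature B cell markers have a median of 0.57, and T cell and macrophage markers have medians of -0.30 and -0.37.

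Markers of other cell types lay on both sides of 0 beside the members, and their part in the members' values was not tested. Over all genes tested, 13.8% were higher and 12.6% lower by unadjusted p under 0.05. Of 11 tested of 12 listed markers of lymphoid stroma, none passed by limma, and 9 were higher and 1 lower by that p. Their centred mean was -0.38, -0.32 and -0.27 with vehicle and 0.14, 0.38 and 0.46 with imatinib, and the groups did not overlap. Madcam1, among the 9 higher, was kept only because of its imatinib values. The list is not one of stroma alone, since it holds Ltb, Lta and Tnfsf11, which lymphocytes also express. These differed by 0.33, 0.64 and 0.59 and are among the genes higher by unadjusted p. Ccl19, a chemokine of lymphoid stroma, differed by 0.77 (adjusted p = 0.0624), and Tnfsf13b, which is BAFF, the ligand of the receptor encoded by Tnfrsf13c, by -0.87 (adjusted p = 0.0678). Of 17 tested of 18 listed T cell markers none passed and 7 were lower by unadjusted p, against 12.6% of all genes tested, with a centred mean of 0.18, 0.14 and 0.26 with vehicle and -0.10, -0.09 and -0.39 with imatinib. Cd8a was the T cell marker at -1.23 (adjusted p = 0.0654) and Skap1 that at -0.90 (adjusted p = 0.0646). Of 11 tested of 12 listed macrophage and myeloid markers none passed and 5 were lower by unadjusted p, with a centred mean of 0.23, 0.09 and 0.12 against 0.03, -0.12 and -0.35. Of the T cell markers 14 had a lower and 3 a higher mean, and of the macrophage markers 8 had a lower and 3 a higher mean. Over all genes tested, 54.3% had a higher mean.

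The lists for cell types that also make SPIB were mixed in direction. Of 8 tested of 12 listed markers of plasmacytoid dendritic cells none passed by limma, and the median was 0.06. By unadjusted p under 0.05, 3 were higher and 3 lower, against 13.8% and 12.6% of all genes tested. Ly6d differed by 1.22 (adjusted p = 0.053, limma) and Pacsin1 by -1.73 (adjusted p = 0.0614, limma). Cox6a2, among the 3 lower, was kept only because of its vehicle values. Of 9 tested of 10 listed markers of microfold cells and follicle epithelium, 1 was higher, Ccl20, a chemokine of that epithelium, at 3.77-fold (adjusted p = 0.0432). General intestinal epithelium varied between arrays more than the members did. Its 11 tested markers of 12 had a centred mean of -1.72, 0.61 and -0.42 with vehicle and 0.59, 0.23 and 0.71 with imatinib, none passed by limma and 1 was higher by unadjusted p. Erythroid markers, 3 tested of 6, were high on imatinib 3, at a centred mean of 2.20, with none called and none past an unadjusted p of 0.05. The members' median was 1.27 without vehicle 1 and 1.06 without imatinib 3, with no member called in either setting. Without vehicle 1 the epithelial markers Krt18 and Tff3 differed by 0.87 and 0.63. Tumour and Cajal cell markers, 9 tested of 10, and smooth muscle markers, 7 tested of 8, had medians of -0.31 and 0.56, with none called by limma and 2 and 1 lower by unadjusted p.

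**Figure D3:**
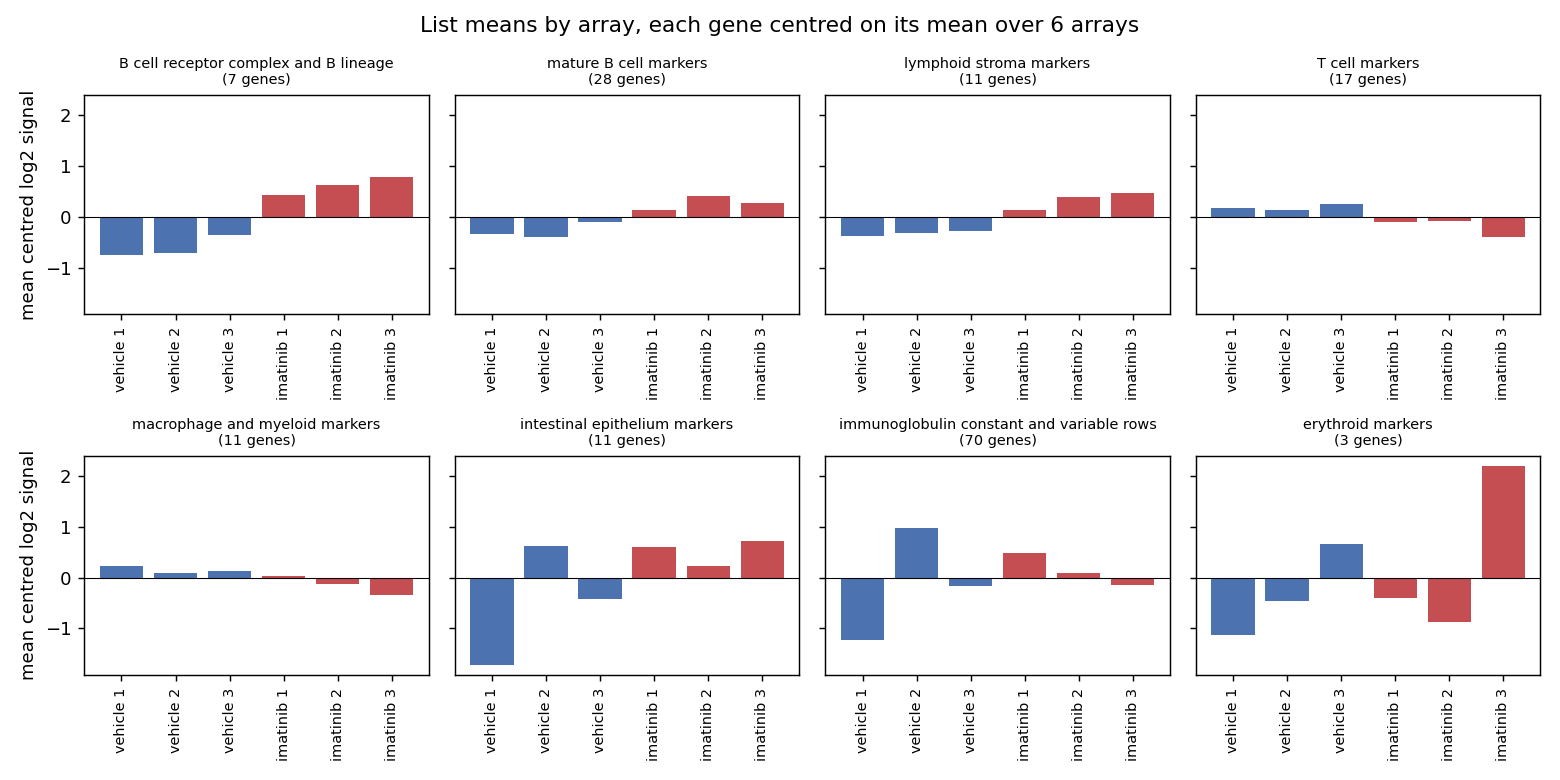
Mean of each list on each array (vertical axis, log2 signal, each gene centred on its mean over the 6 arrays; blue for vehicle, red for imatinib), for the B lineage members and 7 other lists. The members go from -0.76 on vehicle 1 to 0.79 on imatinib 3. The lymphoid stroma markers, some of which lymphocytes also express, are split between the groups in the same way. Epithelium is lowest on vehicle 1 at -1.72, and erythroid markers are highest on imatinib 3 at 2.20.

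The direction of the members' difference was the same under every setting tried, and the call was not. Every setting uses the same arrays, so the shared direction is no independent support. The groups did not overlap in the 7 tested members, which left little room for a reversal with 1 array left out. Cd79a was higher under each of 19 other settings, by 0.77 (the authors' processed values) to 1.83, and passed in 12 of them. Vpreb3 was higher in each of the 16 settings in which it was tested, by 0.60 (the authors' processed values) to 1.61, and passed in 12. Under the filter it was kept only because of its imatinib values, and it was not tested with any imatinib array left out. Cd79b passed in 2 of 19 settings, Blk in 2, Cd22 in 3, Blnk in 1 and Spib in 1, and all of these values were higher with imatinib. With array weights the 7 passed, as did 29.0% of all genes tested in the higher direction, and without vehicle 2 there were 4, against 5.32%. Without the detection filter no member passed by limma, with adjusted p of 0.0522 for Vpreb3 and 0.063 for Cd79a. By unadjusted p under 0.05, 8 of the 9 members were higher in that setting, against 9.22% of all genes.

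**Figure D4:**
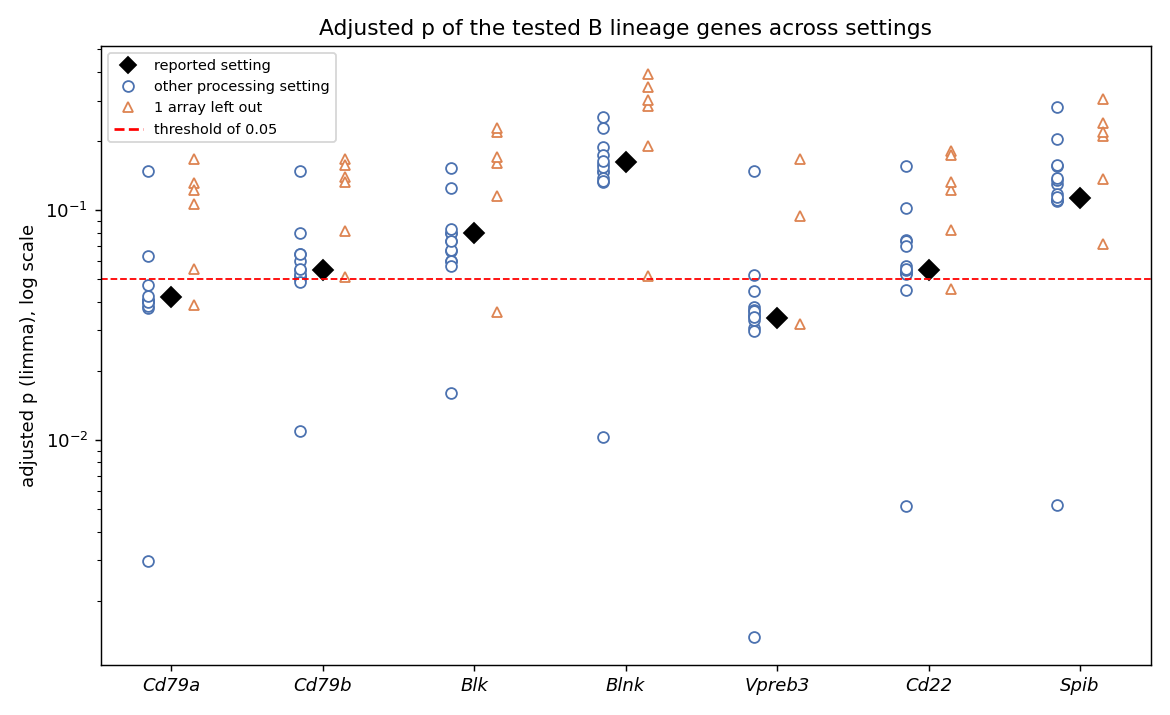
Adjusted p by limma (vertical axis, log scale) of the 7 tested members under the reported setting (black diamonds), other processing settings (blue circles) and with 1 array left out (orange triangles), with a dashed line at the threshold of 0.05. Cd79a and Vpreb3 have their diamonds under the line, at 0.0418 and 0.0339, and most triangles lie above it.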

How the data were processed

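Per the file headers, the authors' probe table holds the mean intensity over each probe's beads with its standard error, the count of beads, and a detection p-value set against negative controls. These values were deposited without normalization between arrays. The deposited gene-level table and the authors' processed values are on a log2 scale, and the submitters' processing notes name Partek without a version. The probe table names no genes, so each of the 31492 gene-level rows was matched to the run of neighbouring probes whose mean signal gave its value on all 6 arrays. Names came from the platform annotation, updated through RefSeq for GRCm38.p6.

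Background was removed with limma's neqc, which fits normexp to the detection p-values (offset 16, so that folds of dim genes come out too small), and signals were quantile normalized and put on a log2 scale. A probe was kept where at least 3 of the 6 arrays detected it (p under 0.05). This left 21395 probes, and the brightest of a gene stood for it. Groups, taken from the sample titles, were compared with lmFit and eBayes (limma 3.58.1, R 4.3.3) with no block, Benjamini-Hochberg adjustment over 14713 genes and a threshold of 0.05. The procedure was also run on simulated independent genes with a common residual SD. These arrays differ from that, so the simulation does not bear on the calls made here. A fold is given as a bound where no array of a group detected the probe. Such a bound holds for the reported setting only and carries no sampling error. No slide or scan date is in the files used.

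Besides the 9 members the text names, of each of 14 lists, up to 4 called genes by smallest p or else the 2 of smallest p, the 8 genes most like the members' mean, and Kit. For those 8, names of clones, predictions and accessions were passed over. Some of the genes so chosen are given only in counts. Further list genes are named where they qualify a list. The members and lists were chosen with earlier results of these data known. The lists hold 200 genes, 5 of them on 2 lists. Other settings changed the background correction, normalization, filter, choice among probes, deposited table used, variance model, weighting of arrays, replicate block and threshold, or left out each array in turn. Testing each kept probe by itself was added after seeing the data.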

Additional observations from a re-analysis of the deposited data

How the results depend on the processing

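The count of members called higher, 2 as reported, fell to 0 by limma without the detection filter and with the replicate block, was 7 with array weights and 5 at an adjusted p of 0.1, and lay between 0 and 4 with 1 array left out. It was 0 without vehicle 1, vehicle 3 or any imatinib array and 4 without vehicle 2. In the settings with 0 calls, 5 to 8 members were higher by unadjusted p under 0.05. In the same settings 2403 to 5184 genes, of 14352 to 29516 tested, passed that p in either direction. The replicate numbers share no known pairing: deviations of same-numbered samples correlated at -0.112, -0.308 and 0.0188, and no vehicle sample correlated best with its own number. With the block 7 members were higher by unadjusted p under 0.05, beside 2902 of 14713 genes in either direction. The smallest adjusted p by limma over all genes was then 0.148. Under the other settings 2 or 3 members were called. The median log2 difference of the members, 1.40, was 1.03 without background correction, 0.84 with an offset of 50, 0.98 without the filter (9 members), 0.82 in the deposited gene-level table, 0.60 in the authors' processed values and 0.86 with array weights, and 1.06 to 1.58 with 1 array left out. The cause of these shifts was not tested. Over all genes, 232 calls became 484 with cyclic loess, 0 without the filter, 409 with the mean of a gene's probes, 382 in the gene-level table, 385 in the processed values, 429 with a variance trend, 7589 with array weights (whose estimation stopped before converging), 0 with the replicate block, 1673 at 0.1, and 0 to 1360 with 1 array left out, 1360 without vehicle 2 and 0 without vehicle 1, vehicle 3, imatinib 1 or imatinib 3. Where no gene was called, 2403 to 5184 genes had an unadjusted p under 0.05. The share of calls that were higher was 33.2% as reported, 56.3% with array weights, 56.6% without vehicle 2. Calls among 162 tested genes of the other lists, 8 as reported, were 0 with the replicate block (56 by unadjusted p) and 0 to 22 with 1 array left out. Of 821 values of 42 named genes under other settings, 657 kept direction and side of the threshold, 82 lost it, 78 gained it and 4 reversed. The reversals were those of Hba-a1 and Hbb-b1, to -0.61 and -0.66 with array weights, and with 1 array left out these lay from -0.07 to 1.36 and from -0.26 to 1.11, lowest without imatinib replicate 3. The intervals in the text cover the spread between arrays under the reported setting only: in the authors' processed values Cd79a, Vpreb3, Blk, Cd22 and Spib, at 0.77, 0.60, 0.49, 0.24 and 0.14, lay under theirs. Several members are near background with vehicle.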
